A study of Homo sapiens with 6 samples.

Results

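The 32 genes described here are the lysosomal and TFEB family genes of HepG2 cells: 3 transcription factors (TFEB, TFE3 and MITF), 5 lysosomal membrane proteins and channels, 6 peptidases, 7 glycosidases, 4 sulfatases, 4 lipid hydrolases or activators, and 3 subunits of the vacuolar proton pump. They were chosen as the rows of the expression table that carry these gene symbols, and all 32 were found among its 60612 genes. Of the 32, 31 passed the filter on low counts and stood among the 14990 genes tested. CTSZ did not pass. The compared groups were 3 HepG2 libraries infected with lentivirus carrying an shRNA against circPRKAA1, which is a circular RNA of the PRKAA1 gene, and 3 HepG2 libraries infected with lentivirus carrying a control shRNA. HepG2 is a human liver cancer cell line, and the genotype label is WT in all 6 libraries. The labels do not give the time after infection, any selection or the number of shRNA sequences, and 1 cell line was used. In the labels the knocked-down RNA is written circPRKAA1, circPRKAA2 and circPRKAA3 for the 3 knockdown libraries, whereas their titles all name circPRKAA1, and groups follow the titles.

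Lysosomes are acidic organelles in which hydrolases break down proteins, glycans, glycosaminoglycans, lipids and nucleic acids delivered by endocytosis and autophagy. Many of their genes carry an E-box motif, called CLEAR, that TFEB and its relatives bind in the nucleus. When nutrients are ample, the kinase complex mTORC1 phosphorylates TFEB and TFE3 on the lysosomal surface and they stay in the cytoplasm. On starvation or lysosomal damage they lose these phosphates and enter the nucleus, so their activity is set largely by location, which RNA counts do not measure. In hepatocytes lysosomes supply fatty acids and cholesterol by breaking down lipid droplets and lipoproteins.

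Levels below are CPM (counts scaled to a common library size) after TMM scaling, and differences are log2 changes of knockdown over control from edgeR's quasi-likelihood test, with p-values adjusted over all genes tested by Benjamini-Hochberg and a threshold of 0.05. Depth was 16348435 to 17549690 counts in knockdown and 16284262 to 20282496 in control libraries. Hepatocyte-like markers (10 genes, such as albumin) summed to 29890 to 30871 CPM in knockdown and to 30120 to 31201 CPM in control libraries. Of these 10, APOB and FGB rose and AFP, TTR, APOA1, APOA2 and HNF4A fell, and the largest change was that of HNF4A, at 144, 157 and 151 CPM in knockdown and 445, 407 and 419 CPM in control libraries. Of 7 fibroblast markers 6 were under 1 CPM in every library, and the 7 summed to 2.71 to 2.95 CPM in knockdown and 3.82 to 4.28 CPM in control libraries. Of 4 leukocyte markers 2 were under 1 CPM, and the sum of 606 to 633 CPM in knockdown and 771 to 847 CPM in control libraries was nearly all LYZ. Of 3 endothelial markers 2 were under 1 CPM, with sums of 4.76 to 5.49 CPM in knockdown and 4.82 to 7.45 CPM in control libraries. The part of these markers in the results was not tested. In bulk RNA, fewer cells of a type and less RNA per cell cannot be told apart. The circle has no row in the table, so its knockdown was not checked, and the host gene does not check it: PRKAA1 stood at 82.5, 76.2 and 80.7 CPM in knockdown and 31.8, 48.9 and 45.4 CPM in control libraries. The log2 change of PRKAA1 was 0.92, and 0.29 in the second fit below, which carried offsets for GC content and exonic length. Scaling by library totals moved the median log2 change of all genes by 0.20 and scaling to TPM by 0.29, so the changes given are relative to TMM scaling. Without the filter the median was 0.24, over 30361 genes in place of 14990.

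Knockdown libraries held more RNA of most peptidases and of some sulfatases and lipid hydrolases, while the 3 transcription factors did not pass the test. Of the 31 tested members, 15 rose (48.4%), 4 fell (12.9%) and 12 did not pass. Without control replicate 2 the number that fell was 8, without knockdown replicate 1 it was 2, and with TPM scaling it was 0. Over all tested genes 36.1% rose and 32.4% fell. The members' median log2 change was 0.24, between -0.44 (GLA) and 1.27 (IDS), and the median over all tested genes was 0.05. Summed over the 32 genes, the level was 5481, 5928 and 5727 CPM in knockdown and 4897, 4467 and 4647 CPM in control libraries, so the sums did not overlap. Among the members 7 were called with a change of at least 1.5-fold, and 1 of these, IDS, with at least 2-fold. How many of all tested genes passed these fold cuts was not counted, so the 7 cannot be judged many or few. ASAH1 is among the 7 and lost its call in the second fit given below. All knockdown libraries were above all control libraries for 15 tested members, against 38% of all tested genes, and below them for 5, against 34.1%. With scaling by library totals 65.8% of all calls were rises, with TPM scaling 71.6%, and with limma on log2(FPKM + 1) 65.1%, against 52.7% with TMM.

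**Figure D1:**
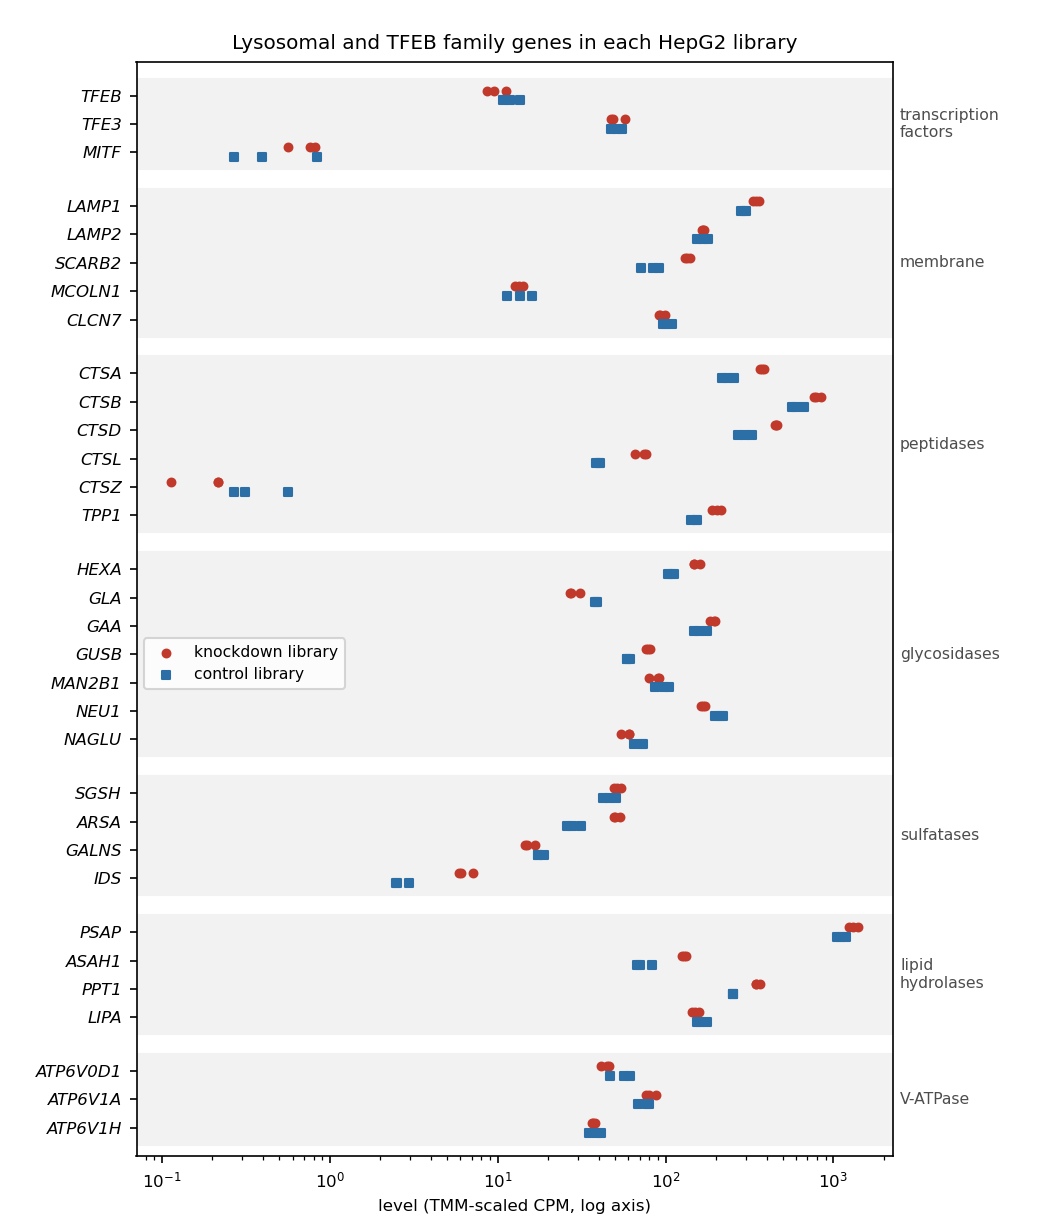
TMM-scaled CPM (log axis) of the 32 genes in each library, grouped by role, with knockdown and control libraries marked separately. PSAP is highest at 1234 to 1404 CPM in knockdown and 1046 to 1193 CPM in control libraries, and CTSZ and MITF lie below 1 CPM in all 6.

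Changes in this comparison moved with the GC content of the genes. Among 5317 genes with at most 45% GC the median log2 change was 0.40, among 5070 genes with 45 to 55% GC it was -0.07, and among 4476 genes above 55% it was -0.30. The members' median GC content was 52.8% (37.3 to 66.0%), against 48.8% over 14863 tested genes with a value. A second fit therefore carried offsets, fitted for each library on GC content and exonic length. With them 18 members rose and 6 fell, against 35.2% and 33.6% of all tested genes, and the members' median was 0.29 against 0.02 over all genes. Of the 15 genes that rose, 14 also rose with the offsets, and of the 4 that fell, 3 also fell. Without offsets, 18 of 31 members lay above the median of all tested genes together, and with the offsets 22 of 31. Without offsets, 25 of 31 members lay above the median of all genes in their own GC class: 4 of 7 in the lowest class, 9 of 11 in the middle class and 12 of 13 in the highest.

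**Figure D2:**
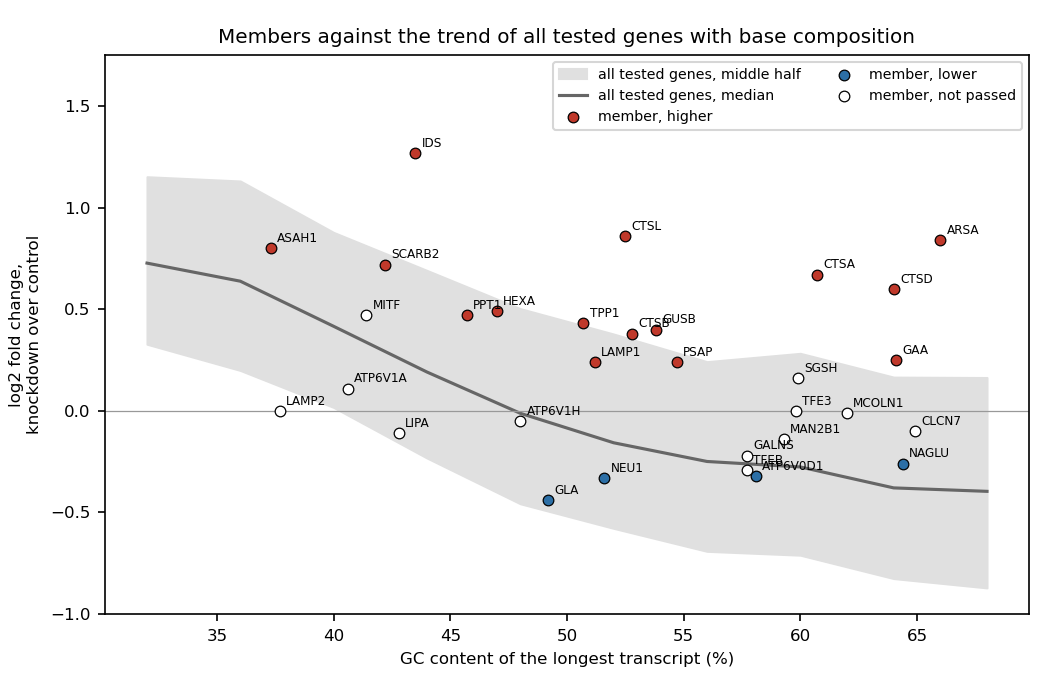
Log2 change of knockdown over control (y) against GC content in percent (x) for the 31 tested members, drawn over the median and interquartile range of all tested genes by GC content. ARSA, at 66.0% GC and 0.84, stands far above the falling median, and 12 of the 13 members above 55% GC lie above the median of their class.

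None of the 3 transcription factors passed the test. TFEB, the best known regulator of lysosomal genes, stood at 8.65, 11.2 and 9.57 CPM in knockdown and 13.5, 11.8 and 10.8 CPM in control libraries. The groups overlapped in 1 knockdown library, and the log2 change was -0.29 ± 0.13 (SE; adjusted p = 0.0707 by edgeR). It was called lower with RLE factors (-0.32), with quantile normalization (-0.48), and without control replicate 2 (-0.34), control replicate 3 (-0.39) or knockdown replicate 2 (-0.40), and it was 0.01 with TPM scaling and -0.07 with the offsets. TFE3, its relative with overlapping targets, stood at 47.5, 57.0 and 48.8 CPM in knockdown and 54.8, 47.3 and 51.6 CPM in control libraries. The groups overlapped and the log2 change was 0.00 ± 0.09 (SE; adjusted p = 0.98 by edgeR), while TFE3 was called higher with the offsets (0.29) and with TPM scaling (0.29). MITF, the melanocyte and osteoclast factor of the family, had 15, 14 and 10 counts in knockdown and 4, 16 and 7 counts in control libraries. At this depth no difference was detectable for MITF (log2 0.47 ± 0.44, SE; adjusted p = 0.356 by edgeR). Per length, with TMM-scaled library sizes, TFE3 was the most abundant of the 3, at 12.1 ± 1.23 FPKM in knockdown and 12.2 ± 0.886 FPKM in control libraries. TFEB followed at 1.74 ± 0.231 FPKM in knockdown and 2.12 ± 0.242 FPKM in control libraries, and MITF at 0.0982 ± 0.018 FPKM in knockdown and 0.0685 ± 0.041 FPKM in control libraries (SD, n = 3 each).

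The promoters of members were searched for the letters that TFEB is known to bind. RefSeq windows (GRCh38.p14) of 300 bases, most of them before the gene start, were available for 22 of the 32 genes. The genes without a window were ARSA, HEXA, ATP6V1H, SGSH, NAGLU, CTSB, LAMP2, ATP6V1A, PSAP and ASAH1. The letters searched were CACGTG, the E-box core, and TCACGTGA, the central part of the CLEAR motif, which contains the core. Both read the same on the other strand. Among the 22 genes 9 held the core (40.9%) and 6 held the longer motif (27.3%). Over 10489 tested genes with a window the shares were 12.5% and 2.26%, and over all 27305 genes with a window 8.77% and 1.18%. Over 120 genes with a window from the 6 lists of other lysosomal genes below, the shares were 27.5% and 12.5%. Raised shares were thus not particular to the members. The 6 genes with the longer motif are printed here, 5′ to 3′ on the gene's own strand, with the core in capitals. For LAMP1 and MCOLN1 the bases directly before the start are printed, and for the other 4 the 30 bases around a motif, because the annotation places exons in their windows. In order, they lie at chr13:113297039-113297238 (plus strand), chr19:7522424-7522623 (plus), chr20:45891298-45891327 (plus), chr17:80101493-80101522 (plus), chr16:67481199-67481228 (minus) and chr16:88857104-88857133 (minus).
LAMP1: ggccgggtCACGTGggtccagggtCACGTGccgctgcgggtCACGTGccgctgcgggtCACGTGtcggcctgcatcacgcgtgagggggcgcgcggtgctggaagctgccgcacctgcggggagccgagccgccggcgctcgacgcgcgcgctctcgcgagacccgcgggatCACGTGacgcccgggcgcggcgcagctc
MCOLN1: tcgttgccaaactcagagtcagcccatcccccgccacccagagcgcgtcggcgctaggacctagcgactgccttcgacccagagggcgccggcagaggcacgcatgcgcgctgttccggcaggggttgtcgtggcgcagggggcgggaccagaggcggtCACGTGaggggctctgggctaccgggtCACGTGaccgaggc
CTSA: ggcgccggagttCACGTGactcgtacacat
GAA: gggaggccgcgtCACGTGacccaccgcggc
ATP6V0D1: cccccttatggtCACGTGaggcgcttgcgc
GALNS: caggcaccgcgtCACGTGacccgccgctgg
The bases printed for LAMP1 hold the core 5 times, and 1 of these copies, 28 bases before the start, is the longer motif. Its whole window holds the core 6 times and the longer motif 2 times, the last copy spanning the start. The bases printed for MCOLN1 hold the longer motif 2 times, 41 and 14 bases before the start.

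Genes with and without these letters are listed here by their test, beside 36.1% rises and 32.4% falls over all tested genes. Of the 6 genes with the longer motif, LAMP1, CTSA and GAA rose, ATP6V0D1 fell, and MCOLN1 and GALNS did not pass. Their median log2 change was 0.12. All of them but LAMP1 lay above 55% GC, where the median over all tested genes was -0.30, so the medians of these groups are not directly comparable. Of the 3 genes with the core alone, CTSD rose, NEU1 fell and CLCN7 did not pass. Of the 12 tested genes whose window held no core, 6 rose and 1 fell, with a median of 0.41. The 10 genes with no window had 5 rises and 1 fall, with a median of 0.20. A match of letters is a description and does not show binding.

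Among the 5 membrane proteins and channels 2 rose (40.0%, beside 36.1% of all tested genes), and 3 did not pass. SCARB2, also called LIMP-2, carries the enzyme glucocerebrosidase to the lysosome (chr4:76158737-76234536). It stood at 135, 130 and 140 CPM in knockdown and 71.5, 90.8 and 84.1 CPM in control libraries. All knockdown libraries were above all control libraries, with a log2 change of 0.72 ± 0.09 (SE; adjusted p = 2.09e-06 by edgeR), and of 0.22 with the offsets. LAMP1, an abundant glycoprotein that lines the inside of the lysosomal membrane (chr13:113297239-113323672), stood at 330, 360 and 348 CPM in knockdown and 303, 280 and 292 CPM in control libraries. The groups did not overlap, and the log2 change was 0.24 ± 0.07 (SE; adjusted p = 0.00502 by edgeR). This call ended without control replicate 2 (0.17, adjusted p = 0.0551) or control replicate 3 (0.21, adjusted p = 0.0734), and was kept with the offsets (0.36).

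LAMP2, its relative and, as 1 of its isoforms, the receptor of chaperone-mediated autophagy, stood at 167, 165 and 169 CPM in knockdown and 155, 179 and 167 CPM in control libraries. The log2 change was 0.00 ± 0.07 (SE; adjusted p = 0.997 by edgeR), and its direction depended on the scaling: LAMP2 was called higher with library totals (0.20), TPM scaling (0.29), quantile normalization (0.24) and limma on log2(FPKM + 1) (0.19), and lower with the offsets (-0.59). Gene counts do not separate its isoforms. MCOLN1, the calcium-releasing channel TRPML1, stood at 12.7, 14.2 and 13.4 CPM in knockdown and 16, 11.4 and 13.5 CPM in control libraries, with overlap and a log2 change of -0.01 ± 0.13 (SE; adjusted p = 0.932 by edgeR). With the offsets it was called higher (0.32). CLCN7, a chloride and proton exchanger, stood at 93.3, 91.7 and 98.7 CPM in knockdown and 109, 96.2 and 100 CPM in control libraries. Its log2 change was -0.10 ± 0.08 (SE; adjusted p = 0.233 by edgeR), it was called higher with TPM scaling (0.19) and with the offsets (0.13), and lower without control replicate 2 (-0.19).

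The peptidases moved in 1 direction: all 5 that were tested rose, beside 36.1% of all tested genes, with a median log2 change of 0.60. All 5 also rose with the offsets, with a median of 0.91. Summed over the 6 genes, the level was 1832, 1966 and 1896 CPM in knockdown and 1444, 1240 and 1328 CPM in control libraries. CTSL, a cysteine endopeptidase (chr9:87726109-87731469), had the largest change of the 5. It stood at 66.1, 76.6 and 74.4 CPM in knockdown and 40.3, 38.4 and 40.9 CPM in control libraries, so every knockdown library was well above every control library. The log2 change was 0.86 ± 0.08 (SE; adjusted p = 1.8e-07 by edgeR), or 1.82-fold. Its 6 pseudogenes in the table averaged at most 0.203 CPM in either group.

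CTSA is a carboxypeptidase that also holds the sialidase NEU1 and beta-galactosidase in a protective complex (chr20:45890144-45898820). Its level was 364, 384 and 373 CPM in knockdown and 255, 218 and 233 CPM in control libraries. The groups were far apart, with a log2 change of 0.67 ± 0.07 (SE; adjusted p = 7.85e-07 by edgeR). It shares exon bases with NEURL2 and PLTP on the other strand, and how the counting treated strand is not given in the sources used here. PLTP averaged 39.4 CPM in knockdown and 109 CPM in control libraries, opposite in direction to CTSA. CTSD, the aspartic endopeptidase (chr11:1752755-1764573), stood at 450, 459 and 452 CPM in knockdown and 328, 271 and 299 CPM in control libraries, again without overlap. Its log2 change was 0.60 ± 0.08 (SE; adjusted p = 3.25e-06 by edgeR), and 0.99 with the offsets. CTSD shares 1304 exon bases with AC068580.4 on its own strand, which averaged 4.59 CPM in knockdown and 3.7 CPM in control libraries.

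The other 2 tested peptidases rose by less. TPP1, the tripeptidyl peptidase lost in a childhood neuronal ceroid lipofuscinosis, had a log2 change of 0.43 ± 0.07 (SE; adjusted p = 6.55e-05 by edgeR). CTSB, a cysteine peptidase, had one of 0.38 ± 0.08 (SE; adjusted p = 0.000344 by edgeR). Neither overlapped between the groups. CTSZ, a carboxypeptidase, had 4, 4 and 2 counts in knockdown and 4, 6 and 10 counts in control libraries, too few for a test.

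Of the 7 glycosidases 3 rose and 3 fell (42.9% each), near the 36.1% rises and 32.4% falls over all tested genes. Their median log2 change was -0.14 with TMM scaling. It was 0.14 with the offsets, 0.16 with TPM scaling, 0.06 with library totals and 0.03 with quantile normalization. HEXA, the alpha subunit of beta-hexosaminidase, which degrades GM2 ganglioside (chr15:72340924-72376420), stood at 147, 160 and 147 CPM in knockdown and 113, 103 and 108 CPM in control libraries. The groups did not overlap, with a log2 change of 0.49 ± 0.07 (SE; adjusted p = 2.21e-05 by edgeR). GUSB, beta-glucuronidase, stood at 76.3, 80.7 and 78.6 CPM in knockdown and 61.8, 58.7 and 58.6 CPM in control libraries. Its libraries also separated, with a log2 change of 0.40 ± 0.07 (SE; adjusted p = 0.00019 by edgeR). GUSB has pseudogenes that share its sequence, and GUSBP11 averaged 8.55 CPM in knockdown and 9.85 CPM in control libraries. GAA, the glycogen-degrading acid alpha-glucosidase, had a log2 change of 0.25 ± 0.08 (SE; adjusted p = 0.00823 by edgeR), a call that ended without control replicate 2 (0.15, adjusted p = 0.105) or control replicate 3 (0.21, adjusted p = 0.0959).

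The 3 glycosidases that fell were GLA, NEU1 and NAGLU. GLA, alpha-galactosidase A, which degrades globotriaosylceramide (chrX:101393273-101408012), stood at 26.9, 30.9 and 27.3 CPM in knockdown and 39.2, 38.3 and 38.2 CPM in control libraries. Every knockdown library was below every control library, with a log2 change of -0.44 ± 0.09 (SE; adjusted p = 0.000404 by edgeR), and -0.40 with the offsets. With TPM scaling the call ended (-0.15, adjusted p = 0.131). NEU1, the lysosomal sialidase that CTSA protects, had a log2 change of -0.33 ± 0.07 (SE; adjusted p = 0.000666 by edgeR), opposite in sign to CTSA. The call for NEU1 was kept with the offsets (-0.17) and ended with library totals (-0.13), TPM scaling (-0.03), quantile normalization (-0.08) and limma on log2(FPKM + 1) (-0.12). NAGLU, which removes N-acetylglucosamine from heparan sulfate, fell by 0.26 ± 0.08 on the log2 scale (SE; adjusted p = 0.0106 by edgeR), but its sign turned with TPM scaling (0.03) and with the offsets (0.14, adjusted p = 0.0551), and with the offsets and the replicate number as a block it was called higher (0.14, adjusted p = 0.0435). The call for NAGLU also ended without knockdown replicate 1 (-0.21, adjusted p = 0.0629), with library totals (-0.06), with quantile normalization (-0.17) and with limma on log2(FPKM + 1) (-0.06). MAN2B1, lysosomal alpha-mannosidase, stood at 79.3, 91.9 and 90.7 CPM in knockdown and 105, 86.3 and 97.5 CPM in control libraries, which overlapped. It did not pass (log2 -0.14 ± 0.09, SE; adjusted p = 0.168 by edgeR), except without control replicate 2 (-0.26).

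**Figure D3:**
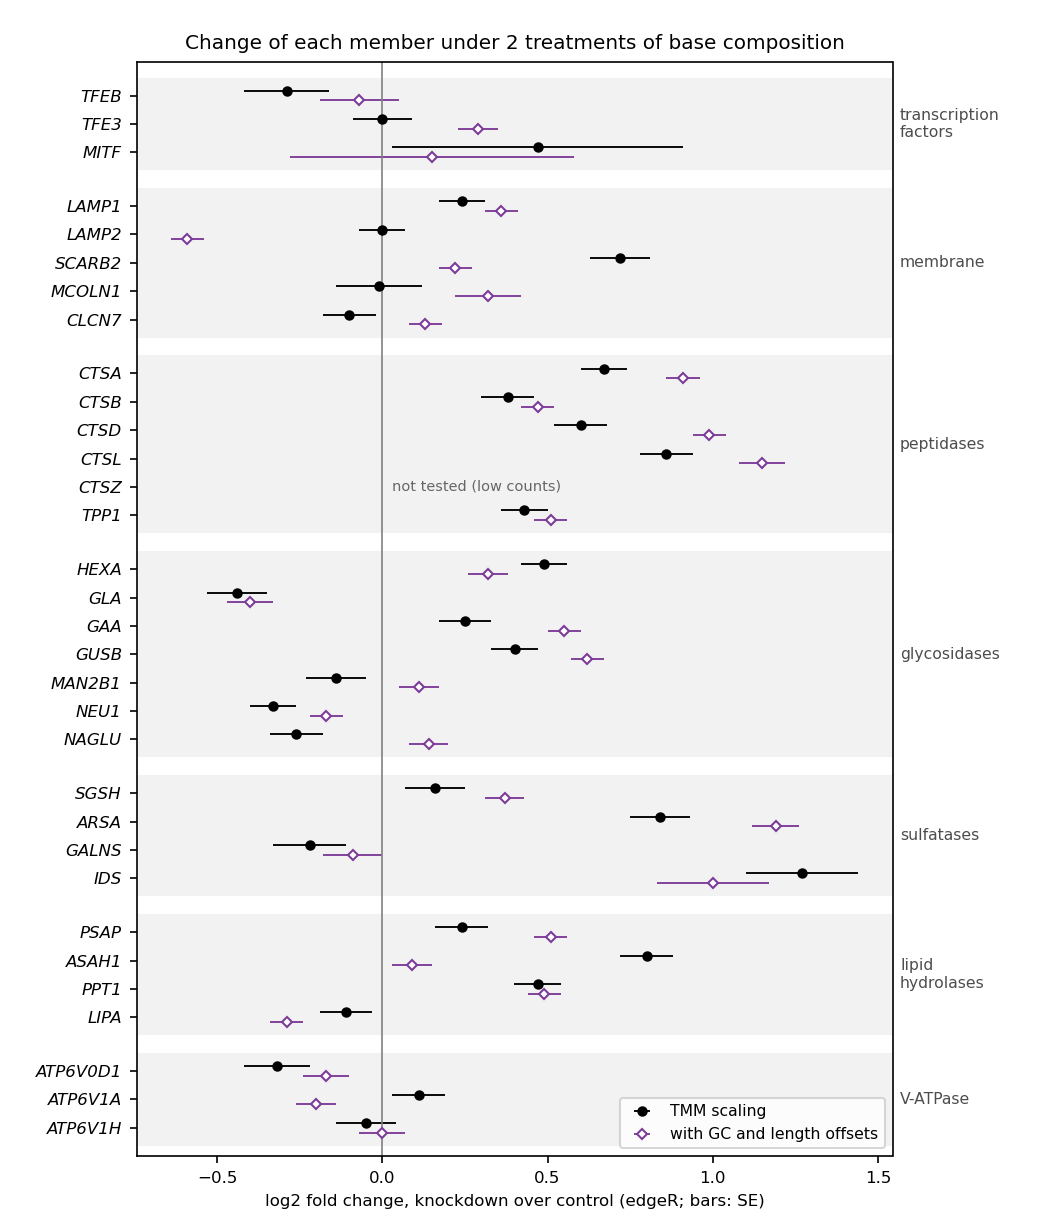
Log2 change of knockdown over control for the 31 tested genes, grouped by role, with TMM scaling (filled circles) and with GC and length offsets (open diamonds); bars are standard errors. The 5 peptidases lie between 0.38 and 0.86 with TMM scaling and stay above 0 with the offsets, whereas LAMP2 (0.00 and -0.59), NAGLU (-0.26 and 0.14) and ASAH1 (0.80 and 0.09) differ between the fits.

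Of the 4 sulfatases 2 rose, beside 36.1% of all tested genes, and 2 did not pass. IDS, which removes sulfate from dermatan and heparan sulfate (chrX:149476988-149521096), had the largest change of all 31 genes and one of the lowest levels. It stood at 5.87, 6.07 and 7.14 CPM in knockdown and 2.95, 2.5 and 2.47 CPM in control libraries, with 108 to 126 counts in knockdown and 44 to 48 counts in control libraries. The groups were well apart, with a log2 change of 1.27 ± 0.17 (SE; adjusted p = 7.64e-06 by edgeR), or 2.42-fold. The change was 0.45 with limma on log2(FPKM + 1), where the pseudocount pulls low genes towards 0. IDS shares 1529 exon bases with AC244197.3 on its own strand, which averaged 1.05 CPM in knockdown and 0.111 CPM in control libraries. ARSA, the sulfatase of myelin sulfatide (chr22:50622754-50628173), stood at 49.6, 53.3 and 49.7 CPM in knockdown and 31.3, 27.9 and 25.9 CPM in control libraries. Its groups did not overlap, and the log2 change was 0.84 ± 0.09 (SE; adjusted p = 6.6e-07 by edgeR), and 1.19 with the offsets.

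SGSH, the heparan sulfamidase, stood at 49.6, 54.4 and 51.4 CPM in knockdown and 50.4, 42.6 and 46.2 CPM in control libraries. These overlapped in 1 control library and the log2 change of 0.16 ± 0.09 did not pass (SE; adjusted p = 0.107 by edgeR). SGSH was called higher with the offsets (0.37), library totals (0.36), TPM scaling (0.46), quantile normalization (0.20), limma on log2(FPKM + 1) (0.32) and a mean FPKM of at least 1 (0.22), and without control replicate 1 (0.20). GALNS, the sulfatase of keratan sulfate, stood at 14.5, 15.0 and 16.6 CPM in knockdown and 18.8, 17.4 and 17.5 CPM in control libraries. The knockdown libraries were the lower ones throughout, but the log2 change of -0.22 ± 0.11 did not pass (SE; adjusted p = 0.0767 by edgeR). GALNS was called lower with RLE factors (-0.26), quantile normalization (-0.36) and without control replicate 2 (-0.29).

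Of the 4 lipid hydrolases and activators 3 rose with TMM scaling, beside 36.1% of all tested genes. With the offsets 2 rose and 1, LIPA, fell, beside 35.2% rises and 33.6% falls over all tested genes. ASAH1, acid ceramidase, stood at 128, 126 and 133 CPM in knockdown and 68.0, 83.0 and 70.8 CPM in control libraries. The groups were far apart, with a log2 change of 0.80 ± 0.08 (SE; adjusted p = 4e-07 by edgeR), but its GC content was 37.3%, the lowest of all tested members, and with the offsets the call ended (0.09, adjusted p = 0.187). PPT1, which removes palmitate from proteins (chr1:40072710-40097260), stood at 344, 364 and 345 CPM in knockdown and 254, 253 and 254 CPM in control libraries. Its control libraries were nearly equal and all below the knockdown libraries, with a log2 change of 0.47 ± 0.07 (SE; adjusted p = 1.04e-05 by edgeR), and 0.49 with the offsets. PSAP, the precursor of the saposins that present sphingolipids to their hydrolases (chr10:71816298-71851325), stood at 1234, 1404 and 1311 CPM in knockdown and 1193, 1046 and 1109 CPM in control libraries. The groups did not overlap, and the log2 change was 0.24 ± 0.08 (SE; adjusted p = 0.0104 by edgeR). The call for PSAP ended without control replicate 2 (0.15, adjusted p = 0.114), control replicate 3 (0.20, adjusted p = 0.112) or knockdown replicate 2 (0.19, adjusted p = 0.0676), and was kept with the offsets (0.51).

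LIPA, lysosomal acid lipase, frees cholesterol and fatty acids from the esters that lysosomes take up. It stood at 144, 158 and 150 CPM in knockdown and 153, 176 and 160 CPM in control libraries, which overlapped. The log2 change of -0.11 ± 0.08 did not pass (SE; adjusted p = 0.207 by edgeR), and LIPA was called lower with the offsets (-0.29) and without control replicate 1 (-0.17).

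Of the 3 proton pump subunits 1 fell (33.3%, beside 32.4% of all tested genes) and none rose. ATP6V0D1, a subunit of the membrane sector, stood at 41.2, 44.9 and 45.9 CPM in knockdown and 61.8, 46.8 and 56.8 CPM in control libraries. The groups did not overlap, though control replicate 2 lay close to the knockdown libraries, and the log2 change was -0.32 ± 0.10 (SE; adjusted p = 0.00898 by edgeR). The call for ATP6V0D1 ended without knockdown replicate 1 (-0.28, adjusted p = 0.0535), with library totals (-0.12), with TPM scaling (-0.03) and with limma on log2(FPKM + 1) (-0.10), and was kept with the offsets (-0.17). ATP6V1A, the catalytic subunit, stood at 76.8, 79.2 and 87.9 CPM in knockdown and 68.5, 79.5 and 77.3 CPM in control libraries, and ATP6V1H, a regulatory subunit, at 36.5, 37.0 and 38.1 CPM in knockdown and 41.5, 39.0 and 34.9 CPM in control libraries. Both overlapped, with log2 changes of 0.11 ± 0.08 for ATP6V1A (SE; adjusted p = 0.237 by edgeR) and -0.05 ± 0.09 for ATP6V1H (SE; adjusted p = 0.655 by edgeR). The direction of ATP6V1A depended on the setting, with calls of lower with the offsets (-0.20) and higher with library totals (0.31), TPM scaling (0.41), quantile normalization (0.25) and limma on log2(FPKM + 1) (0.30), and ATP6V1H was called higher with TPM scaling (0.25).

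Levels of different genes can be compared per exonic length, as FPKM with TMM-scaled library sizes. PSAP was the most abundant member, at 413 ± 26.7 FPKM in knockdown and 350 ± 23.1 FPKM in control libraries. CTSD followed at 147 ± 1.61 FPKM in knockdown and 97.2 ± 9.2 FPKM in control libraries, then CTSB at 109 ± 5.59 FPKM in knockdown and 83.7 ± 6.84 FPKM in control libraries, and PPT1 at 104 ± 3.37 FPKM in knockdown and 75.1 ± 0.195 FPKM in control libraries (SD, n = 3 each). The order of these 4 was the same in both groups. Some neighbours in this order lay close. CTSB and PPT1 stood at 104, 115 and 107 FPKM and at 102, 108 and 102 FPKM in the 3 knockdown libraries, and the ranges overlapped although CTSB was the higher in each library. In control libraries CTSD stood at 107, 88.2 and 97 FPKM and CTSB at 91.3, 77.9 and 82.1 FPKM, with CTSD again the higher in each library. These differences were not tested. CTSL ranked 7 of 32 in knockdown, at 39.1 ± 2.99 FPKM, and 12 of 32 in control libraries, at 21.5 ± 0.713 FPKM (SD, n = 3 each). NEU1 ranked 9 in knockdown, at 35.2 ± 0.902 FPKM, and 6 in control libraries, at 44.2 ± 2.47 FPKM (SD, n = 3 each). MITF and CTSZ were the lowest of the 32 genes in both groups.

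Other genes of the lysosome were counted from 6 lists, beside the same 36.1% rises and 32.4% falls over all tested genes. Among 42 other hydrolases and activators 38 were tested, and 24 rose (63.2%) while 6 fell (15.8%), with a median log2 change of 0.37. ARSG, a heparan sulfate sulfatase, stood at 21.7, 22.6 and 21.4 CPM in knockdown and 5.42, 5.32 and 5.38 CPM in control libraries, a log2 change of 2.03 ± 0.12 (SE; adjusted p = 5.71e-10 by edgeR). SMPD1, acid sphingomyelinase, stood at 20.7, 24.8 and 24.4 CPM in knockdown and 5.22, 4.07 and 6.28 CPM in control libraries, a log2 change of 2.17 ± 0.15 (SE; adjusted p = 3.65e-09 by edgeR). Neither gene overlapped between the groups. On the genome ARSG (chr17:68259182-68422731, plus strand) shares its end with WIPI1 (chr17:68420948-68457513, minus strand), a gene of another list below. How the counting treated strand is not given, and whether reads of 1 gene were counted for the other was not tested.

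Among 31 other membrane proteins and transporters 29 were tested, and 15 rose while 4 fell (LAPTM4B, MFSD12, TPCN1 and NPC2), with a median log2 change of 0.25. With TPM scaling MFSD12 (-0.11), TPCN1 (-0.01) and NPC2 (0.07, its sign turned) did not pass. TPCN1 also missed the threshold with library totals (-0.10) and limma on log2(FPKM + 1) (-0.08), and MFSD12 with the offsets (-0.08). NPC2 missed it with library totals (-0.02), quantile normalization (-0.01) and limma (-0.03), and without knockdown replicate 3 (-0.19). MFSD8, a multipass lysosomal membrane protein lost in a neuronal ceroid lipofuscinosis, stood at 21.2, 20.7 and 19.9 CPM in knockdown and 5.83, 7.87 and 6.5 CPM in control libraries. It was higher in every knockdown library, with a log2 change of 1.60 ± 0.13 (SE; adjusted p = 1.82e-08 by edgeR), and 0.98 with the offsets. LMBRD1, which helps carry cobalamin out of lysosomes, stood at 49.4, 46.0 and 49.8 CPM in knockdown and 17.9, 28.7 and 21.2 CPM in control libraries, a log2 change of 1.09 ± 0.13 (SE; adjusted p = 1.73e-06 by edgeR) and 0.45 with the offsets. LAPTM4B, a membrane protein that often has high levels in liver cancers, stood at 231, 253 and 231 CPM in knockdown and 375, 372 and 352 CPM in control libraries, and fell by 0.62 ± 0.07 on the log2 scale (SE; adjusted p = 9.41e-07 by edgeR).

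The proton pump and the routes that bring enzymes to the lysosome gave changes in both directions. Of 17 other tested pump subunits 8 rose and 4 fell (ATP6V0E2, ATP6V0C, ATP6V0B and ATP6V0A2), with a median log2 change of 0.22. The calls for ATP6V0C, ATP6V0B and ATP6V0A2 all ended with library totals (-0.18, -0.17 and -0.10 in that order), TPM scaling (-0.08, -0.08 and 0.00) and limma on log2(FPKM + 1) (-0.17, -0.17 and -0.05). With the offsets ATP6V0C (0.08, its sign turned) and ATP6V0B (-0.08) did not pass, nor did ATP6V0B with quantile normalization (-0.12). ATP6V0E2 stood at 59.8, 67.2 and 63.2 CPM in knockdown and 207, 174 and 188 CPM in control libraries, far below in every knockdown library, with a log2 change of -1.58 ± 0.08 (SE; adjusted p = 2.55e-10 by edgeR). ATP6V1D stood at 32.7, 35.2 and 32.5 CPM in knockdown and 16.7, 18.5 and 15.6 CPM in control libraries, and ATP6V0A1 at 86.5, 95.8 and 97.4 CPM in knockdown and 60.7, 56.8 and 57.4 CPM in control libraries. Both rose, by 0.98 (ATP6V1D) and 0.68 (ATP6V0A1) on the log2 scale. Of 22 genes that deliver enzymes to the lysosome 11 rose and 6 fell, with a median of 0.21. SORL1, a sorting receptor, stood at 224, 238 and 271 CPM in knockdown and 116, 117 and 121 CPM in control libraries, and GNPTAB, which makes the mannose 6-phosphate tag, at 43.7, 43.9 and 44.7 CPM in knockdown and 17.6, 20.7 and 23.1 CPM in control libraries. Both rose, with log2 changes of 1.05 ± 0.08 for SORL1 (SE; adjusted p = 1.16e-08 by edgeR) and 1.10 ± 0.10 for GNPTAB (SE; adjusted p = 1.12e-07 by edgeR). CLN6, which helps enzymes leave the endoplasmic reticulum, stood at 12.7, 11.8 and 11.4 CPM in knockdown and 32.5, 28.6 and 33.0 CPM in control libraries, and fell by 1.39 ± 0.11 on the log2 scale (SE; adjusted p = 1.31e-08 by edgeR).

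Genes that control TFEB at the lysosome gave 16 rises and 10 falls among 29 tested genes, with a median log2 change of 0.36, and 0.10 with the offsets. With library totals, TPM scaling or limma on log2(FPKM + 1) only 3 of these fell. MLST8, a subunit of mTORC1, stood at 30.3, 32.7 and 26.8 CPM in knockdown and 78.4, 65.2 and 69.4 CPM in control libraries, and RRAGA, a GTPase that brings mTORC1 to the lysosome, at 35.0, 46.1 and 39.8 CPM in knockdown and 75.3, 75.3 and 75.5 CPM in control libraries. Both were lower in all knockdown libraries, with log2 changes of -1.24 ± 0.10 for MLST8 (SE; adjusted p = 1.54e-08 by edgeR) and -0.90 ± 0.09 for RRAGA (SE; adjusted p = 3.94e-07 by edgeR). TSC1, part of the complex that restrains mTORC1, stood at 51.5, 45.7 and 52.8 CPM in knockdown and 28.3, 27.2 and 32.6 CPM in control libraries, and rose by 0.77 ± 0.10 on the log2 scale (SE; adjusted p = 2.98e-06 by edgeR).

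Of 10 tested genes known as TFEB targets outside the lysosomal lumen 5 rose (GABARAPL1, WIPI1, MAP1LC3B, PPARGC1A and UVRAG) and 3 fell (SQSTM1, GPNMB and VPS18), with a median log2 change of 0.10. The call for GPNMB ended with library totals (-0.40), TPM scaling (-0.31) and limma on log2(FPKM + 1) (-0.16). The call for PPARGC1A ended with the offsets (0.20), and that for UVRAG with quantile normalization (0.17), DESeq2 (0.30) and no filter (0.30), and without control replicate 3 (0.26), knockdown replicate 2 (0.26) or knockdown replicate 3 (0.32). VPS18 missed the threshold with library totals (-0.06), limma on log2(FPKM + 1) (-0.05) and a mean FPKM of at least 1 (-0.21), and without control replicate 1 (-0.20), control replicate 3 (-0.29), knockdown replicate 1 (-0.26) or knockdown replicate 2 (-0.24), and its sign turned with TPM scaling (0.03) and the offsets (0.05). GABARAPL1, an autophagosome protein of the ATG8 family, stood at 41.5, 44.8 and 43.1 CPM in knockdown and 11, 11.9 and 10.1 CPM in control libraries, a log2 change of 1.97 ± 0.10 (SE; adjusted p = 2.26e-10 by edgeR). WIPI1, which binds lipids of the forming autophagosome, stood at 48.2, 52.9 and 45.5 CPM in knockdown and 13.3, 13.8 and 12.6 CPM in control libraries, a log2 change of 1.89 ± 0.10 (SE; adjusted p = 2.55e-10 by edgeR). Its end overlaps that of ARSG on the other strand, as given above, so the rises of WIPI1 and ARSG may not be separate. MAP1LC3B, the LC3 protein of autophagosomes, stood at 89.2, 89.6 and 91.0 CPM in knockdown and 55.2, 55.4 and 52.3 CPM in control libraries, a log2 change of 0.73 ± 0.07 (SE; adjusted p = 2.96e-07 by edgeR). SQSTM1, the autophagy receptor p62, went the other way and fell by 0.62 on the log2 scale.

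**Figure D4:**
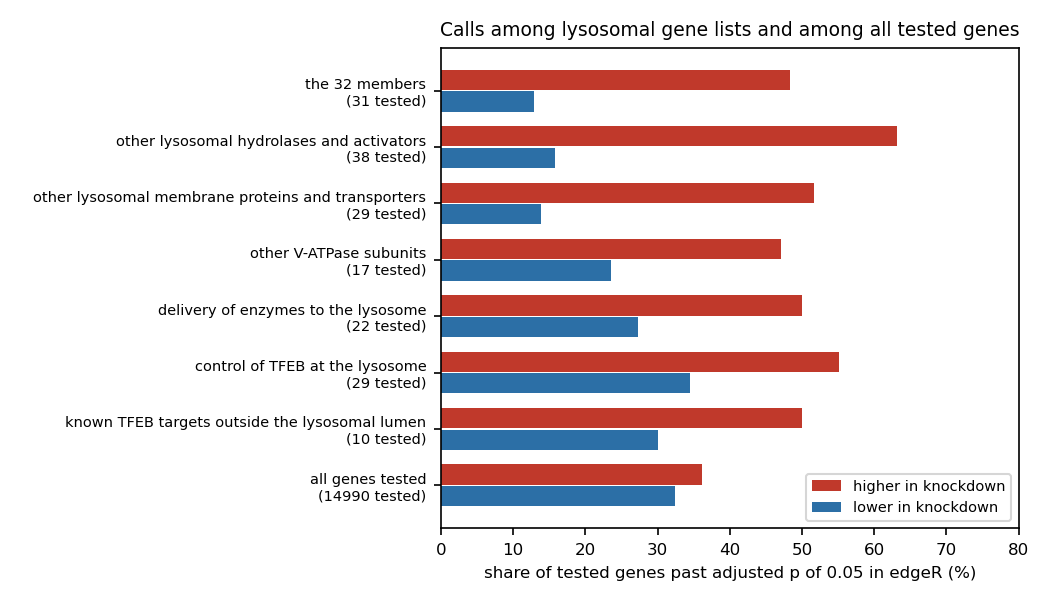
Percent of tested genes that rose or fell in knockdown in each lysosomal list and over all tested genes. The members had 48.4% rises and 12.9% falls and the other hydrolases 63.2% and 15.8%, beside 36.1% and 32.4% over all tested genes; these shares shift with the scaling.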

How the data were processed

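The authors deposited raw counts per Ensembl gene, exonic lengths and FPKM (counts divided by exon length and depth), per the file headers. Per the labels' protocols a SMARTER mRNA-Seq kit was used. What aligned and counted the reads, and with which strand setting, is not given in the sources used here. Of the identifiers 96.34% were found in GENCODE 29, and 99.92% of those overlapped its GRCh38 position, so coordinates are GRCh38. Deposited FPKM differed from values computed from counts, lengths and totals by at most 0.005, and FPKM levels given here use TMM-scaled library sizes in place of totals, except in the limma alternative. A further FPKM column (1) names no replicate and was not used.

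From the counts, edgeR 4.0.16 (R 4.3.3) with filterByExpr (minimum count 10, minimum total 15), TMM factors and a quasi-likelihood test set 3 knockdown against 3 control libraries. Depth was 16284262 to 20282496 counts. Nothing says whether libraries came from separate cultures, so p-values reflect only the spread among these 6 libraries, which may be technical. Replicates all differed beyond sampling noise (chi-square over degrees of freedom 3.83 to 15.51). The 17 alternatives were other scalings, filters, DESeq2 1.42.0, limma 3.58.1 on log2(FPKM + 1), offsets for GC content and length (mgcv 1.9.3), a replicate block, and leaving out single libraries. The edgeR step was tested on simulated data. Members, lists and motifs were chosen with earlier results of these data known.

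Named with values in every library were the 3 factors, the 3 smallest p-values in each role class and each member that missed the threshold, and from each list the 3 genes with the smallest p. A gene that this rule picks is not reported here. MFSD12, TPCN1, NPC2, ATP6V0C, ATP6V0B, ATP6V0A2, PPARGC1A, UVRAG, SQSTM1, GPNMB and VPS18 were named after their values were seen. They are the other falls of the membrane and pump lists and the other called genes among the known TFEB targets.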

Additional observations from a re-analysis of the deposited data

How the results depend on the processing

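Of the 15 members that rose 11 kept the call in all 17 alternatives, and of the 4 that fell 0 did. Rising members numbered 12 to 16 without 1 library and 15 to 21 otherwise. Falling members numbered 2 to 8 without 1 library (8 without control replicate 2, 2 without knockdown replicate 1), 1 with library totals, 0 with TPM scaling and 1 with limma on log2(FPKM + 1). Over all genes 2956 fell with TPM scaling, against 4852, and 4959 to 5417 rose and 4489 to 5159 fell without 1 library. The members' median was 0.44 with library totals and 0.53 with TPM scaling, against 0.24 (0.15 to 0.28 without 1 library; the SD between libraries was 0.10). In the related lists 112 genes were called, 94 to 112 without 1 library.

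Falls in single lists also depended on the scaling. The other hydrolases had 3 with TPM scaling and 3 with limma, against 6. The other membrane proteins had 2 with library totals, 1 with TPM scaling and 2 with limma, against 4, and the other pump subunits 1 in each of these, against 4. Delivery genes had 3 with TPM scaling, against 6. Genes that control TFEB had 3 with library totals, TPM scaling or limma, and 6 with quantile normalization or a mean FPKM of at least 1, against 10. Known TFEB targets had 1 with library totals, TPM scaling, limma or a mean FPKM of at least 1, against 3. The cause was not tested.

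Members at or near 0 were called with other settings: TFE3 with TPM scaling and the offsets (0.29 each), LAMP2 with library totals (0.20), TPM scaling (0.29), quantile normalization (0.24) and limma (0.19), and MCOLN1 with the offsets (0.32). Signs turned, with a call, for CLCN7 with TPM scaling (0.19) and the offsets (0.13), ATP6V1A with the offsets (-0.20) and ATP6V1H with TPM scaling (0.25). Other signs turned without a call. Of the named members and list genes that were called with TMM scaling, NAGLU turned with TPM scaling (0.03) and the offsets (0.14). NPC2 turned with TPM scaling (0.07), VPS18 with TPM scaling (0.03) and the offsets (0.05), and ATP6V0C with the offsets (0.08). With the replicate block added to the offsets these values were the same, and NAGLU was then called higher (0.14, adjusted p = 0.0435). Members that did not pass with TMM scaling also changed sign without a call. Among them were MAN2B1 with the offsets (0.11), and LIPA and GALNS, whose highest values over the alternatives were 0.18 and 0.07.

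Same-numbered libraries had correlations of -0.149 to 0.041 in their deviations, and 1 of 3 knockdown libraries correlated best with its own number. That library, knockdown replicate 3, had the same correlation (0.041) with control replicate 2. No pairing by number was seen, but 3 libraries per group cannot exclude one. The replicate block left 15 members higher and 4 lower, and 5216 genes higher and 4627 lower over all genes. With the block and the offsets 19 members rose and 6 fell. MITF and CTSZ had too few counts for a difference to be read, and 14 of 32 members share exonic bases with another annotated gene, 10 of them with a gene on the other strand.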

Other observations

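A few genes of the related lists are given here because their values stood out, and they were chosen after their values were seen. CTSK, the cysteine peptidase best known from osteoclasts, stood at 2.39, 2.33 and 2.27 CPM in knockdown and 0.536, 0.521 and 0.28 CPM in control libraries, a log2 change of 2.38 ± 0.32 (SE). It had only 44, 43 and 40 counts in knockdown and 8, 10 and 5 counts in control libraries. Over the alternatives its change lay between 0.95 and 2.66. RRAGD, a GTPase of the same family as RRAGA and itself a known TFEB target, stood at 0.924, 1.73 and 1.59 CPM in knockdown and 0.402, 0.417 and 0.448 CPM in control libraries, a log2 change of 1.72 ± 0.38 (SE; adjusted p = 0.000726 by edgeR). Its counts were also low, at 17, 32 and 28 in knockdown and 6, 8 and 8 in control libraries. Over the alternatives the change of RRAGD lay between 0.27 and 2.01. HYAL1, which degrades hyaluronan, stood at 101, 109 and 106 CPM in knockdown and 223, 191 and 208 CPM in control libraries, and fell by 0.98 ± 0.08 on the log2 scale (SE; adjusted p = 1.8e-08 by edgeR). CTSC, the dipeptidyl peptidase that activates serine proteases of immune cells, stood at 73.4, 79.7 and 75.4 CPM in knockdown and 142, 147 and 141 CPM in control libraries, and fell by 0.91 ± 0.07 on the log2 scale (SE; adjusted p = 1.92e-08 by edgeR). In each of these 4 genes all knockdown libraries lay on 1 side of all control libraries. Such separation was common: it was seen upwards in 38% and downwards in 34.1% of all tested genes.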
